A study of Mus musculus with 10 samples.

Results

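Antioxidant enzymes remove superoxide and peroxides, and the 10 genes examined here encode superoxide dismutases (Sod1, Sod2), catalase (Cat), glutathione peroxidases (Gpx1, Gpx4), peroxiredoxins (Prdx3, Prdx5) and members of the thioredoxin system (Txn2, Txnrd1, Txnrd2). They were listed by name, with earlier results of these data known. A gene was represented by the probe sets whose only symbol in the platform annotation is that gene, and where there were several the one with the highest mean over all 10 arrays was used. On this basis 9 of the 10 genes were measured, out of 19938 genes in the series, and all 9 passed the filter on dim rows that left 14953 genes for testing. Prdx5 had no probe set listed under its symbol alone and was not analysed here.

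RNA came from B220+ cells sorted out of pre-B cell colonies (CFU-PreB, colonies grown from single B cell precursors in methylcellulose medium) after 7 days of culture. Bone marrow of 5 Hspa9+/+ mice, described as wild type littermates, and of 5 Hspa9+/- mice was cultured independently and hybridised to 1 Mouse Gene 1.0 ST array per mouse. The Hspa9+/+ mice are called wild type and the Hspa9+/- mice, which carry 1 wild type allele, heterozygous. How the other allele was disrupted, and the age and strain of the mice, are not given in the sources used here. Values are RMA expression on the log2 scale, on which 1 unit is a doubling, and a positive difference means a higher mean in the heterozygous group, with n = 5 in each group.

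Hspa9 encodes mortalin, a chaperone that draws precursor proteins into the mitochondrial matrix and folds them there. The mitochondrial respiratory chain releases superoxide. A manganese dismutase in the matrix and a copper and zinc dismutase in the cytosol turn it into hydrogen peroxide. Catalase in peroxisomes, glutathione peroxidases and peroxiredoxins then reduce the peroxide, and thioredoxins with their reductases return peroxiredoxins to the reduced state with electrons from NADPH. Several of the enzymes, Sod2, Prdx3, Txn2 and Txnrd2 among them, are made in the cytosol and imported into mitochondria.

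The targeted gene and the cell type markers were checked first. Hspa9 averaged 9.92 ± 0.378 (SD) in wild type cells and 9.18 ± 0.244 in heterozygous cells. The difference was -0.73 (limma SE 0.185, adjusted p = 0.345; two-sided exact permutation test of this gene alone over 252 splits, p = 0.0159). Only 1 heterozygous array lay within the wild type range. The B cell receptor genes Cd79a and Cd79b were high on all arrays, with wild type means of 11.82 and 12.33. Macrophage markers were present too: all 13 tested had a higher mean in heterozygous arrays, as did 61.3% of all genes, and 0 passed the test. Their mean level ran from 5.56 to 8.89 in wild type and from 6.89 to 9.33 in heterozygous arrays. Wild type 1 and heterozygous 2 were the highest of their genotypes in these markers. In a sorted bulk sample, a change in the share of another cell type and a change in RNA per cell cannot be told apart.

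None of the 9 antioxidant genes passed the limma test after Benjamini-Hochberg adjustment over all genes at a threshold of 0.05, and neither did any other gene (0.0% of 14953). Sod1 and Sod2, the superoxide dismutases, were the members with the most regular difference: both were higher in every heterozygous array than in any wild type array. The other 7 genes overlapped between genotypes. Heterozygous arrays lay above all wild type arrays for 1.47% of all genes and below them for 0.809%. At an unadjusted p under 0.05 stood 2 of the 9 genes, Sod1 and Sod2, both higher, against 11.0% of all genes, of which 6.79% were higher and 4.25% lower. Over the 9 genes the median difference was 0.095, with 6 above 0 and 3 below, beside a median of 0.058 over all genes tested, of which 61.3% were above 0.

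**Figure D1:**
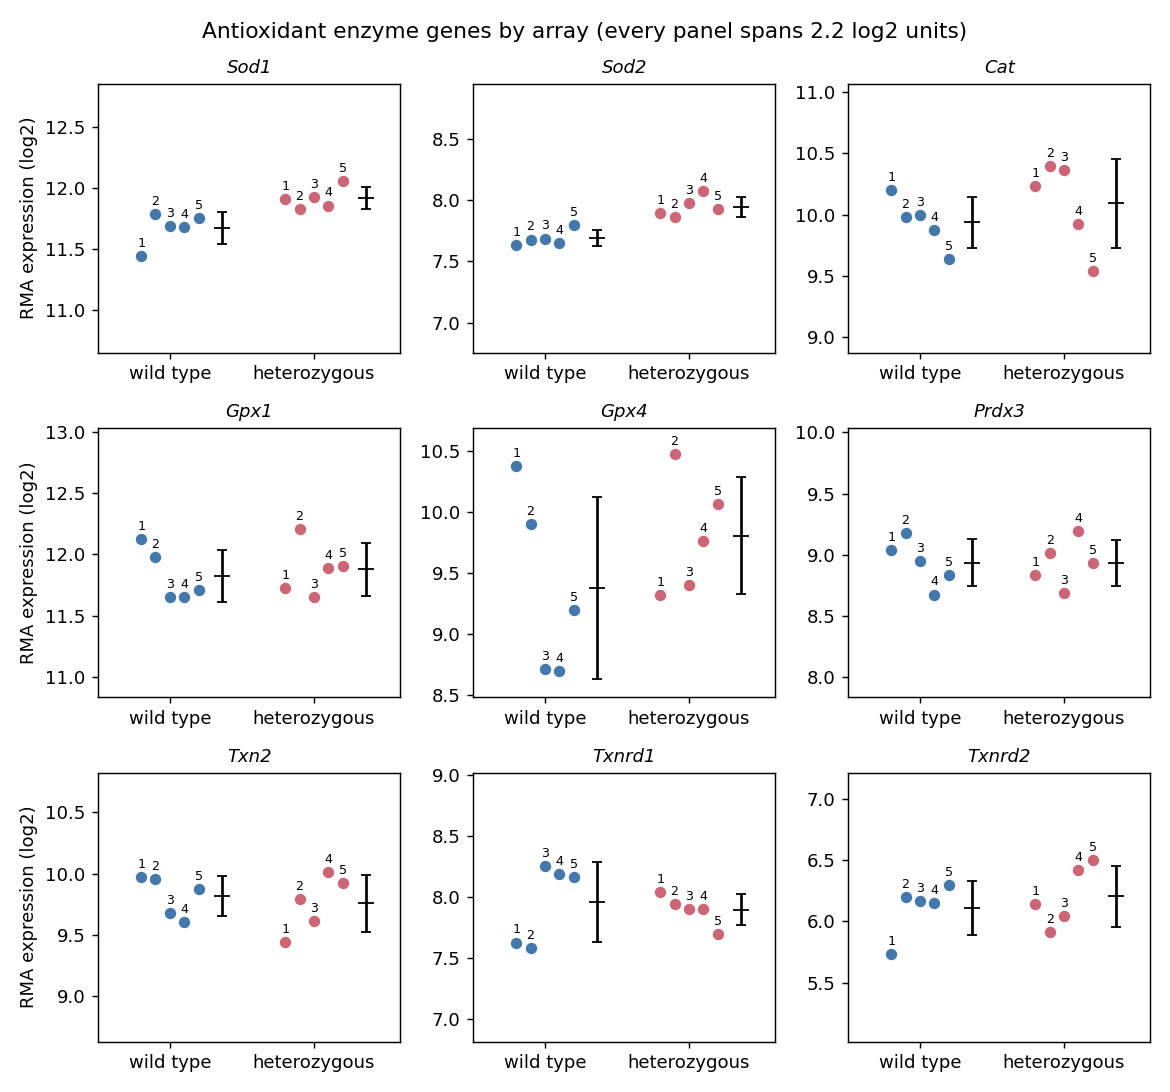
RMA expression (log2) of the 9 measured antioxidant genes on each array, with the replicate number above each point, wild type in blue and heterozygous in red, and the mean ± SD beside each group. Sod1 and Sod2 are separated by genotype, with all heterozygous values of Sod2 at 7.86 or above and all wild type values at 7.80 or below, while Gpx4 has the widest spread.

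Because Sod1 and Sod2 are the pair whose genotypes did not overlap, the 250 bases before their RefSeq transcription starts are shown (build GRCm38.p6, plus strand, chr16:90220512-90220761 for Sod1 and chr17:13007589-13007838 for Sod2), followed by the same stretch for a start of Txnrd1, a gene known to be induced through antioxidant response elements (plus strand, chr10:82858956-82859205). Capitals mark the GC box GGGCGG and the antioxidant response element core TGACNNNGC, searched on both strands with overlapping matches counted.
Sod1: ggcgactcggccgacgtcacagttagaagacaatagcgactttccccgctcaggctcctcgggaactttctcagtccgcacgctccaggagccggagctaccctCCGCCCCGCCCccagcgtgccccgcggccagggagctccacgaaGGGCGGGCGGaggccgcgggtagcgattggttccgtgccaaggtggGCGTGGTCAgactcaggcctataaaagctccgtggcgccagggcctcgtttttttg
Sod2: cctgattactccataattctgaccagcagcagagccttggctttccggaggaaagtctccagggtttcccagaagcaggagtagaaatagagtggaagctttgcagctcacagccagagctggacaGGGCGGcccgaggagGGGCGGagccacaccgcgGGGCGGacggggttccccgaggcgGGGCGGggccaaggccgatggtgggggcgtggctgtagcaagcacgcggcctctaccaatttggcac
Txnrd1: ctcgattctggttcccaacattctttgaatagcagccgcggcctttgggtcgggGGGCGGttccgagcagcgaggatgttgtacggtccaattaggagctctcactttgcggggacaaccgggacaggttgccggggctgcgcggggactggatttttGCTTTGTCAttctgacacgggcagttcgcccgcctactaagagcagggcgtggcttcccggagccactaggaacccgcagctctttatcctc

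RefSeq entries were found for all 10 genes, 15 starts in all. The Sod1 and Sod2 stretches each held 4 GC boxes, a motif present in 32.7% of the 32851 promoter stretches of this length in the table. The antioxidant response element core was found once before Sod1, once before the Txnrd1 start shown, and in no other stretch of the 10 genes, against 10.2% of all stretches. Of the 3 Txnrd1 starts, the one shown is the only one with either motif, so it does not represent the others. These matches are letters in a window, and binding was not measured. The 2 dismutase stretches had GC contents of 66.4% and 63.6%, against a median of 52.4%. GC boxes and a high GC content were not limited to the dismutases: at least 1 GC box lay before 9 of the 10 genes, all but Gpx1, and GC contents were 62.0% before Cat, 65.6% before Txnrd2 and from 58.8 to 66.4% before the 4 starts of Gpx4.

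Sod2, the manganese dismutase of the mitochondrial matrix, was at 7.63, 7.68, 7.69, 7.65 and 7.80 in wild type and at 7.90, 7.86, 7.98, 8.07 and 7.93 in heterozygous arrays. The lowest heterozygous array exceeded the highest wild type array by 0.067. The difference was 0.26 (limma SE 0.0808, 95% interval 0.080 to 0.44, unadjusted p = 0.0086, adjusted p = 0.349), a ratio of heterozygous to wild type of 119.6% (105.7 to 135.2%). It was the smallest unadjusted p of the 9 genes, rank 354 among all genes. The lowest Sod2 value of each genotype was that of the array with the most macrophage marker signal, wild type 1 and heterozygous 2. The Sod2 difference was 0.26 without both arrays and 0.28 when the fit held the macrophage marker mean. That mean was higher in heterozygous arrays, 7.51 against 6.67, so the fit cannot separate genotype from those cells. Their part in the Sod2 difference was not tested.

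Sod1, the copper and zinc dismutase of the cytosol and the space between the mitochondrial membranes, was at 11.45, 11.79, 11.69, 11.68 and 11.76 in wild type arrays. In heterozygous arrays it was at 11.91, 11.83, 11.93, 11.86 and 12.06, and the gap between the genotypes was 0.041. Wild type 1 lay below the other arrays. The difference was 0.24 (limma SE 0.0936, 95% interval 0.039 to 0.45, unadjusted p = 0.0241, adjusted p = 0.404), a ratio of 118.5% (102.7 to 136.7%). The lower bound of this interval lies below the median difference of all genes, 0.058. Without wild type 1 it was 0.19 with an unadjusted p of 0.0600, and with quantile normalization it was 0.20 with an unadjusted p of 0.0912. Ccs, the chaperone that loads copper onto Sod1, averaged 7.05 in wild type and 7.27 in heterozygous cells, which is higher by 0.22 (limma SE 0.167, adjusted p = 0.589).

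**Figure D2:**
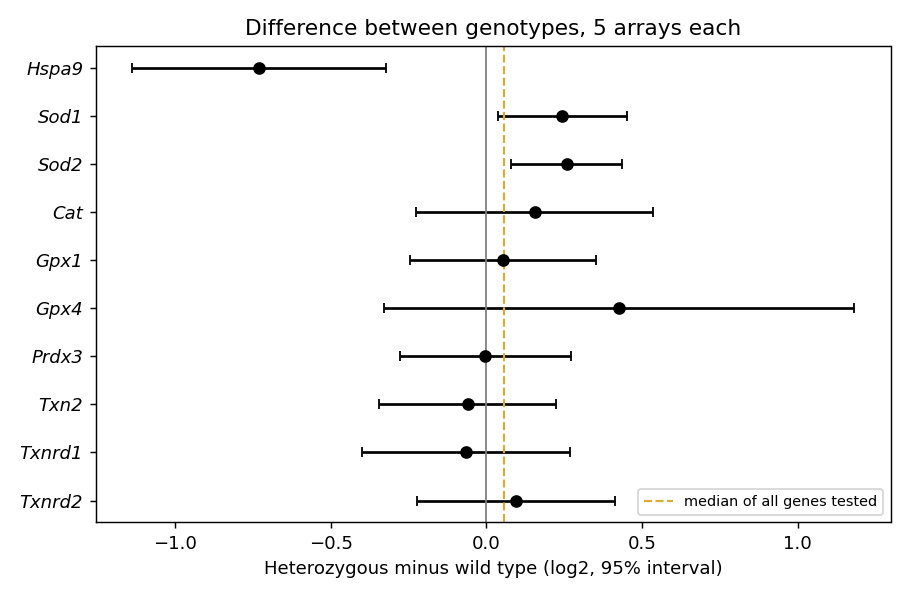
Heterozygous minus wild type difference (log2) of Hspa9 and the 9 antioxidant genes, with limma's 95% interval; the dashed line marks the median of all genes tested, 0.058. The intervals of Sod1 and Sod2 lie above 0 and those of the other 7 antioxidant genes include 0.

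Catalase, which splits hydrogen peroxide in peroxisomes, had an SD of 0.206 in wild type and 0.361 in heterozygous arrays. Cat was at 10.20, 9.98, 9.99, 9.87 and 9.63 in wild type and at 10.23, 10.40, 10.36, 9.92 and 9.54 in heterozygous arrays. Heterozygous 5 was the lowest of all 10 and heterozygous 2 the highest, so the heterozygous range of 0.858 enclosed the wild type range of 0.566. The difference was 0.16 (limma SE 0.173, 95% interval -0.23 to 0.54, adjusted p = 0.703). It was 0.29 without heterozygous 5, 0.078 without heterozygous 2, 0.31 with array weights and 0.047 with the macrophage markers as a covariate.

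Genes of the compartment that holds catalase did not move one way. Of 13 tested peroxisome genes 0 passed after adjustment and 4 had an unadjusted p under 0.05 (30.8%, against 11.0% of all genes), 2 in each direction. Pex2, a membrane ubiquitin ligase of peroxisomes, was at -0.38 (limma SE 0.118, adjusted p = 0.349), and Pex3, an import factor for peroxisomal membrane proteins, at -0.27 (adjusted p = 0.409). Pex5, the receptor for enzymes with a carboxy-terminal import signal, was at 0.27 and Pex19, a carrier of membrane proteins, at 0.37 (both adjusted p = 0.409). Pex3 falls outside the naming rule and was chosen after its values were seen. All 4 overlapped between genotypes.

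Gpx4, the glutathione peroxidase that reduces lipid peroxides in membranes, varied more between arrays than any other of the 9 genes, with an SD of 0.629 over the 10 arrays. Its wild type values were 10.38, 9.90, 8.72, 8.70 and 9.19, and its heterozygous values were 9.32, 10.47, 9.40, 9.76 and 10.07. The highest and second highest arrays, heterozygous 2 and wild type 1, were also the highest in macrophage markers. The order did not follow those markers throughout, since heterozygous 5 was at 10.07 and heterozygous 1 at 9.32 in Gpx4 with macrophage means of 7.14 and 7.13. The difference was 0.43 (limma SE 0.344, 95% interval -0.33 to 1.18, adjusted p = 0.603).

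That Gpx4 difference changed with the arrays used and with macrophage markers in the fit. It was 0.68 without wild type 1 (unadjusted p = 0.0448), 0.26 without wild type 4 and 0.05 when the fit held the macrophage marker mean (adjusted p = 0.901). The marker mean was itself higher in heterozygous arrays, 7.51 against 6.67. That fit therefore cannot tell a part of the genotype from a part of those cells. A second probe set annotated to Gpx4 differed from the first by at most 0.045 on any array and gave a difference of 0.42. The annotation assigns both to the same transcripts, so they are not independent measurements.

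Gpx1, the abundant glutathione peroxidase of the cytosol and mitochondria, had the same arrays at the top. Its values were 12.12, 11.98, 11.65, 11.65 and 11.71 in wild type and 11.73, 12.21, 11.66, 11.89 and 11.91 in heterozygous arrays. The difference was 0.05 (limma SE 0.136, 95% interval -0.24 to 0.35, adjusted p = 0.870). It was -0.029 without heterozygous 2 and -0.078 with the macrophage markers as a covariate, so its direction did not hold.

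**Figure D3:**
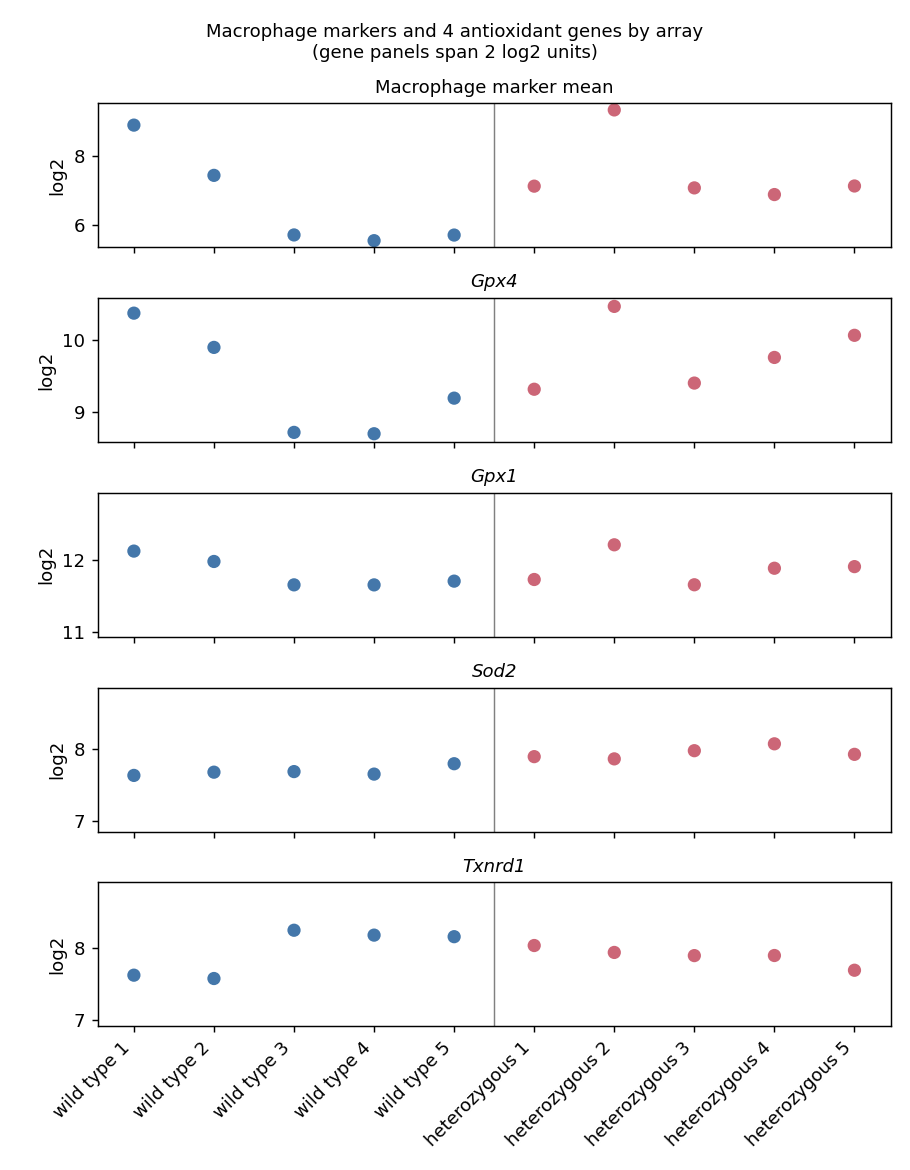
Mean of the 13 macrophage markers and RMA expression (log2) of Gpx4, Gpx1, Sod2 and Txnrd1 by array, wild type in blue and heterozygous in red. Wild type 1 and heterozygous 2 are highest in the marker mean (8.89 and 9.33), in Gpx4 and in Gpx1, lowest of their genotype in Sod2 (7.63 and 7.86), and among wild type arrays Txnrd1 is lowest in arrays 1 and 2.

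Prdx3, the peroxiredoxin of the mitochondrial matrix, was at the same mean in both genotypes. Its values were 9.04, 9.18, 8.95, 8.67 and 8.83 in wild type and 8.83, 9.01, 8.69, 9.20 and 8.94 in heterozygous arrays. The groups covered nearly the same range. The difference was -0.0028 (limma SE 0.126, adjusted p = 0.994), and the 95% interval placed heterozygous cells between 82.4 and 120.9% of the wild type level.

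Txn2, the mitochondrial thioredoxin that reduces Prdx3, was at 9.97, 9.95, 9.68, 9.61 and 9.87 in wild type and at 9.44, 9.80, 9.61, 10.01 and 9.93 in heterozygous arrays. Heterozygous 1 was the lowest array and heterozygous 4 the highest. The difference was -0.06 (limma SE 0.130, 95% interval -0.35 to 0.23, adjusted p = 0.846), and without heterozygous 1 it was 0.019.

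Txnrd2, the selenium-containing reductase of Txn2, was the member closest to the filter on dim rows, 1.64 above its limit of 4.52. It was at 5.73, 6.20, 6.17, 6.15 and 6.30 in wild type and at 6.14, 5.91, 6.05, 6.42 and 6.50 in heterozygous arrays. Wild type 1 stood apart below all others and heterozygous 2 was the lowest of its genotype. The difference was 0.09 (limma SE 0.145, 95% interval -0.22 to 0.41, adjusted p = 0.782). It was 0.00072 without wild type 1, 0.17 without heterozygous 2, -0.008 with array weights and 0.21 with the macrophage markers as a covariate.

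Of the 4 enzymes imported into the mitochondrial matrix that were named above, Sod2 thus had separated genotypes, while Prdx3, Txn2 and Txnrd2 overlapped with intervals on both sides of 0. Whether the Sod2 difference exceeds theirs was not tested.

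Txnrd1, the cytosolic thioredoxin reductase and a known target of the transcription factor NRF2, split the wild type arrays. It was at 7.63 and 7.58 in wild type 1 and 2 and at 8.25, 8.19 and 8.16 in wild type 3, 4 and 5. The heterozygous arrays lay between, at 8.04, 7.94, 7.90, 7.90 and 7.70. The difference was -0.07 (limma SE 0.151, 95% interval -0.40 to 0.27, adjusted p = 0.859). It was 0.0072 without wild type 3 and 0.044 with the macrophage markers as a covariate.

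The genes most like each of the 3 most variable members over the 10 arrays were listed by Pearson's r, as a description only. The arrays differ in macrophage marker mean, from 5.56 to 9.33, and the part of this in the correlations was not tested. For Gpx4 the genes were Gpsm3 (r = 0.989), Amdhd2 (0.986) and B4gat1 (0.985). For Cat they were Tmx4 (0.942), Coa5 (0.914) and Ikbip (0.904), and for Txnrd1 they were Mtfr2 (0.956), Leo1 (0.954) and Ppp4r2 (0.950). The adjusted p of these 9 genes between genotypes ranged from 0.587 (Coa5) to 0.897 (Leo1).

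The rest of the pathway was read from lists by role, in which 84 further genes passed the filter. None of the 84 passed after adjustment, 6 had an unadjusted p under 0.05 (3 higher and 3 lower, 7.14% against 11.0% of all genes), and the genotypes were separated in 0 of them, against 2.28% of all genes. Their median difference was 0.074, beside 0.058 over all genes. The counts above 0 in the lists that follow stand beside 61.3% of all genes. The unadjusted count was thus below the background, and the 6 genes were the 4 peroxisome genes above with Idh2 and Sesn3.

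Among 9 other enzymes of superoxide and peroxide the median difference was 0.11 with 8 above 0. The genes of smallest p were Gpx7, a glutathione peroxidase relative of the endoplasmic reticulum, at 0.32 (limma SE 0.158, adjusted p = 0.474) and Gpx2 at 0.36 (SE 0.217, adjusted p = 0.536), followed by Ccs. Both were dim, averaging 4.99 and 4.88 in wild type cells. None of the 9 had an unadjusted p under 0.05.

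Of 14 other genes of the thioredoxin and glutaredoxin systems and of oxidised protein repair, 11 were above 0 and the median was 0.050. Sesn3, a sestrin under FOXO control, was at 7.71, 7.67, 7.86, 7.88 and 7.98 in wild type and at 7.50, 7.38, 7.73, 7.70 and 7.26 in heterozygous arrays. Heterozygous 3 lay above wild type 1 and 2 and heterozygous 4 above wild type 2, and the difference was -0.30 (limma SE 0.116, adjusted p = 0.403). Glrx, the cytosolic glutaredoxin, was at 0.35 (adjusted p = 0.470) and Glrx5, a mitochondrial glutaredoxin of iron-sulfur cluster transfer, at 0.26 (adjusted p = 0.502).

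Genes of glutathione synthesis and reduction had the lowest median of the pathway lists, -0.12 over 7 genes with 4 below 0. Gclc, the catalytic subunit of the rate-limiting ligase, was at -0.55 (limma SE 0.265, adjusted p = 0.472), Ggct, a cyclotransferase of glutathione turnover, at -0.25 (adjusted p = 0.591) and Gss, glutathione synthetase, at 0.19 (adjusted p = 0.545). With macrophage markers as a covariate Gclc was at -0.29 and Ggct at -0.075.

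NADPH supply genes had a median of 0.15 over 9 genes, 7 of them above 0. Idh2, the mitochondrial NADP-dependent isocitrate dehydrogenase, was at 9.70, 9.85, 9.32, 9.18 and 9.43 in wild type and at 9.66, 10.01, 9.74, 10.04 and 10.07 in heterozygous arrays. The difference was 0.41 (limma SE 0.145, adjusted p = 0.384), and wild type 1 and 2 reached into the heterozygous range. The pentose phosphate enzymes Tkt and Pgd were at 0.27 (adjusted p = 0.460) and 0.38 (adjusted p = 0.570). Pgd was at 0.20 without heterozygous 2, 0.56 without wild type 1 and 0.077 with macrophage markers as a covariate.

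NRF2 is the transcription factor that induces many antioxidant genes under oxidative stress. Its regulators and targets showed 9 genes above 0 and 6 below, with a median of 0.10 over 15 genes and 0 at an unadjusted p under 0.05. Besides Gclc, the smallest p belonged to the glutathione conjugate exporter Abcc1 at 0.60 (limma SE 0.319, adjusted p = 0.498) and the small MAF protein Mafk at 0.18 (adjusted p = 0.503). Abcc1 was at 0.33 without heterozygous 2, its highest array, and at 0.23 with macrophage markers as a covariate.

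**Figure D4:**
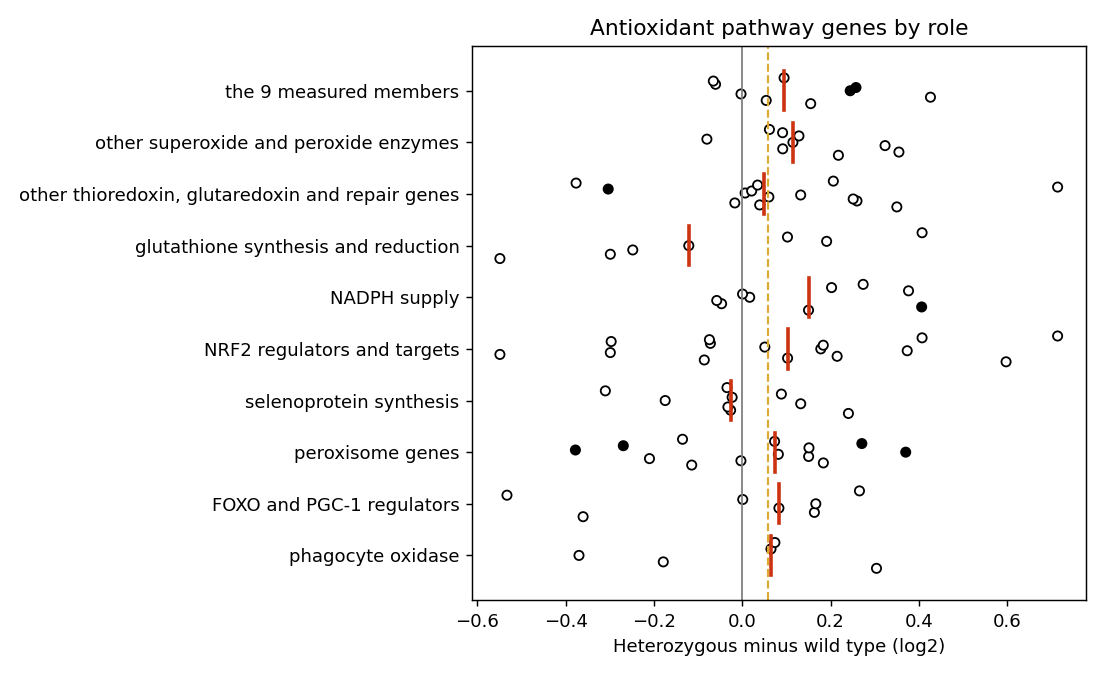
Heterozygous minus wild type difference (log2) of each tested gene, by role; filled points have an unadjusted limma p under 0.05, red bars are list medians, the grey line is 0 and the dashed line is the median of all genes (0.058). The filled points are Sod1 and Sod2 among the members, Sesn3, Idh2 and 4 peroxisome genes.

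The 9 genes that make selenoproteins, the class to which Gpx1, Gpx4, Txnrd1 and Txnrd2 belong, had a median of -0.026 with 6 below 0. The elongation factor Eefsec was at 0.24 (adjusted p = 0.533), the insertion factor Secisbp2 at -0.17 (adjusted p = 0.539) and the selenocysteine synthase Sepsecs at -0.31 (adjusted p = 0.548). Among 7 regulators of the FOXO and PGC-1 group, which are known to control Sod2 and Cat, Sirt3, a mitochondrial deacetylase, was at 0.27 (adjusted p = 0.453), Sirt1 at -0.53 (adjusted p = 0.458) and Foxo1 at -0.36 (adjusted p = 0.558). None of these 16 genes had an unadjusted p under 0.05. Foxo1 was at -0.18 without heterozygous 2, at -0.55 without heterozygous 3 (unadjusted p = 0.0255, adjusted p = 0.499), at -0.16 with array weights and at -0.18 with macrophage markers as a covariate. With that covariate Secisbp2 was at -0.083 and Sepsecs at -0.16.

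The phagocyte oxidase, which makes superoxide in neutrophils and macrophages, had a median of 0.065 over 5 genes. Ncf1 was at -0.37 (adjusted p = 0.658), Rac2 at 0.07 (adjusted p = 0.767) and Cyba at 0.30 (adjusted p = 0.805). Its mean level was 9.90, 9.68, 8.67, 8.71 and 9.05 in wild type and 8.90, 10.07, 9.04, 8.96 and 8.94 in heterozygous arrays, so heterozygous 2 and wild type 1 were again the highest. Ncf1 was at -0.20 without wild type 1 or wild type 2, at -0.63 without heterozygous 2, at -0.16 with array weights and at -0.75 with macrophage markers as a covariate (unadjusted p = 0.00147, adjusted p = 0.155). Cyba was at -0.026 without heterozygous 2 and -0.29 with macrophage markers as a covariate.

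Markers of other cells that the sort could hold were also read. Over the 13 neutrophil lineage genes the list mean ran from 4.96 to 6.80 in wild type and from 5.53 to 7.40 in heterozygous arrays, with Elane at 0.21, Mpo at 0.87 and Prtn3 at 0.35 between genotypes. The 6 plasmacytoid dendritic cell genes ran from 6.29 to 7.41 and from 7.08 to 8.55. Siglech was at 1.63, Bst2 at 0.72 and Ccr9 at 1.72. Of the 6, 5 were above 0 and 1 below, at -0.087, with a median of 0.89. After adjustment 0 passed, with a smallest adjusted p of 0.349. At an unadjusted p under 0.05 stood 4, all higher, against 6.79% of all genes, and 0 were separated between genotypes. The 6 megakaryocyte genes ran from 5.13 to 7.46 and from 5.42 to 7.58, with Pf4 at 1.05, Itga2b at 0.07 and Gp9 at 0.11. Each of these 3 lists had heterozygous 2 as its highest heterozygous array and wild type 1 or 2 as its highest wild type array.

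Erythroid genes, of interest because red cell precursors are rich in catalase and Gpx1, varied little between arrays: the 8 genes ran from 5.50 to 5.83 in wild type and from 5.65 to 5.83 in heterozygous arrays, with Gata1 at -0.01, Klf1 at 0.07 and Epor at 0.19. The 6 T cell and NK cell genes past the filter ran from 5.35 to 5.63 and from 5.79 to 6.02 without overlap, with Cd3e at 0.38, while Cd3d and Cd3g were below the filter. Of the 11 T cell and NK cell genes measured, these 6 passed the filter, and Cd3e was dim, averaging 5.02 in wild type cells. Among the 6, 0 passed after adjustment. At an unadjusted p under 0.05 stood 4, all higher, against 6.79% of all genes. Heterozygous arrays lay above all wild type arrays for 3, against 1.47% of all genes. The 11 B lineage genes ran from 10.27 to 10.65 and from 9.77 to 10.25, also without overlap, with Cd79a at -0.14, Cd79b at -0.11 and Pax5 at -0.47. Their median difference was -0.40, with 10 of 11 below 0, while 61.3% of all genes were above 0. At an unadjusted p under 0.05 stood 3, all lower, against 4.25% of all genes. Heterozygous arrays lay below all wild type arrays for 2, against 0.809% of all genes, and the smallest adjusted p was 0.111. Sod1 and Sod2 thus separate the genotypes on arrays where the T cell and NK cell mean is higher and the B lineage mean lower. The plasmacytoid dendritic cell mean was higher too, at 7.71 in heterozygous and 6.79 in wild type arrays, with overlap. The part of any of these cells in the Sod1 and Sod2 differences was not tested.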

How the data were processed

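RNA of B220+ cells was measured on 10 arrays, 5 per genotype. Per the labels, the authors used Affymetrix Expression Console to compute RMA values per gene, deposited as log2 expression. Its version, the build and the annotation are not given in the sources used here. The RMA step forces arrays to a shared distribution, so a shift of most genes would be largely removed. Array medians ran from 5.38 to 5.49, and the number of arrays limits the precision.

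Of 35556 probe sets, 21789 had 1 symbol, 1621 several and 12146 were not listed in the platform annotation. Of 187 list entries 170 matched. Genes whose mean was not above the 25th percentile (4.52) were dropped. limma 3.58.1 under R 4.3.3 (lmFit, eBayes) compared the genotypes, with Benjamini-Hochberg adjustment over all genes, after checks on simulated data. Lists were described by counts and medians. Named were all members, Hspa9, up to 3 pathway genes of smallest p per list, the first 3 measured markers per cell type list and the 3 genes most like each of the 3 most variable members. Alternatives were other filters, normalizations and variance models, array weights, a replicate block, a macrophage covariate, all probe sets and each array left out. Members and lists were chosen with earlier results of these data known. The main fit did not treat replicate numbers as pairs, and the labels do not say whether they mark pairs.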

Additional observations from a re-analysis of the deposited data

Results flagged for a closer look

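In 3 of 72 genotype groups of single genes tested, 1 array lay far from its nearest neighbour relative to the range of its group, which chance alone gives in about 1 of 20 groups. Txnrd2 in wild type 1 was at 5.73, with the next array at 6.15. Gss in wild type 2 was at 6.91, with the next at 6.63. Abcc1 in heterozygous 2 was at 7.38, with the next at 6.16. These are the 3 arrays with the highest macrophage marker means of all 10, heterozygous 2 at 9.33, wild type 1 at 8.89 and wild type 2 at 7.44; the part of those cells in the 3 values was not tested.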

How the results depend on the processing

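No antioxidant gene or other pathway gene passed adjustment in any of the 20 alternatives run, while the count over all genes, 0, was 137 with array weights, from 0 to 22 with each array left out and 26 without wild type 1 and heterozygous 2. Hspa9 passed with array weights (-0.79, adjusted p = 0.0381). The adjusted p over the alternatives reached down to 0.112 for Sod2 and 0.165 for Sod1, both with array weights, and their differences ran from 0.23 to 0.30 and from 0.19 to 0.29. The median of the 9 genes ran from 0.047 to 0.13. The count of members at an unadjusted p under 0.05, 2, was 1 (Sod2) with quantile normalization, with the replicate block and without both arrays, and from 1 to 2 with each array left out; without wild type 1 the 2 were Sod2 and Gpx4, and without heterozygous 5 only Sod2. This count, and that of genes without overlap, were chosen after seeing the data, and leaving out arrays cannot end a separation.

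Prdx3 was at 0.027 with quantile normalization, 0.0033 without wild type 1 and heterozygous 2, and up to 0.059 with each array left out (lowest -0.069). Txnrd2 was at -0.0080 with array weights. With the macrophage covariate Gpx1 was at -0.078, Txnrd1 at 0.044 and Cyba at -0.29. With each array left out, Txnrd1 ran from -0.16 to 0.0072, Txn2 from -0.12 to 0.019, Gpx1 from -0.029 to 0.13 and Cyba from -0.026 to 0.65.

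The replicate block moved the count of genes at an unadjusted p under 0.05 from 1650 to 1340, with 0 past adjustment. Deviations of same-numbered arrays correlated from -0.528 to 0.534, and 0 of 10 arrays correlated best with its own number. With so few arrays this cannot exclude a pairing by replicate number. Of the 26 other pathway genes chosen by the naming rule, 16 moved by over 1.5 times under at least 1 alternative and 11 did so with the macrophage covariate.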
